A study of Homo sapiens with 6 samples.

Results

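Cyclin B, CDK1 and the kinases that start mitosis and guard the spindle were followed here in ZR-75-1, an oestrogen receptor-positive (ER-positive) human breast cancer cell line, after CDK4/6 inhibition. The set held 10 genes (CCNB1, CCNB2, CDK1, AURKA, PLK1, BUB1, BUB1B, TTK, NEK2 and MASTL), found by their Ensembl identifiers among the 60612 genes counted, and all 10 had enough counts to be tested. Every library came from parental cells, in which RB1 was not edited, grown in RPMI-1640 with serum. There were 3 libraries from cells given DMSO, the solvent, and 3 from cells given 500 nM abemaciclib, an inhibitor of CDK4 and CDK6, each for 4 days. The labels number the libraries of a group as replicates, which the study describes as biologically independent. The series design also names RB1-knockout cells, which were not analysed here.

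Cyclin B binds CDK1 to form the kinase that drives a cell from G2 into mitosis. WEE1 and PKMYT1 hold this kinase inactive by phosphorylating CDK1, CDC25 phosphatases release it, and PLK1 and Aurora A (AURKA) help to start the switch. MASTL, also called Greatwall, keeps the opposing phosphatase PP2A-B55 in check, whereas BUB1, BUB1B and TTK run the checkpoint that delays anaphase until chromosomes are attached. The mRNA of most of these genes is low in G1 and high in G2 and mitosis, so that in a culture it also follows the share of cells in those phases.

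All 10 genes fell with abemaciclib. With a threshold of 0.05 on the adjusted P of the edgeR quasi-likelihood test, 10 of 10 were lower, whereas 13.3% of the 10863 genes tested were lower. None was higher, with a count of 0 in edgeR, also before adjustment, and of 0 in DESeq2. All 10 also had a log2 fold change under −1 with that call, which held for 5.94% of all genes tested. The median log2 fold change was −2.13 over the set and −0.00 over all genes tested. In each of the 10 genes every abemaciclib library lay below every DMSO library, which held for 20.1% of all genes tested. Summed over the set, levels were 764, 805 and 757 CPM (counts per 1000000, scaled by the TMM method) with DMSO and 160.0, 152 and 144 CPM with abemaciclib. The mean sum fell from 775 ± 26.0 to 152 ± 8.01 CPM (SD, n = 3 in each group), which left 19.6% of the DMSO sum. On the log2 scale the difference was −2.35, with a two-sided exact permutation P of 0.1, the smallest that 3 libraries against 3 can give. In bulk RNA, fewer cells in G2 and mitosis and less mRNA per cell cannot be told apart.

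The libraries held between 3317860 and 4013156 counts on genes, so that a count of 0 allowed up to 0.748 to 0.904 CPM. Between 18.9% and 21.4% of counts fell on the 20 most abundant genes and 15.6% to 18.3% on mitochondrial transcripts, with the highest share of each in abemaciclib replicate 3. The part of these shares in the results was not tested. All 7 luminal epithelial markers were tested and summed to 6661 to 7275 CPM with DMSO and 7563 to 8640 CPM with abemaciclib, with KRT19, a keratin, the most abundant. They moved both ways, with ESR1, the oestrogen receptor gene (log2 fold change 0.83, edgeR adjusted P = 2.92e-07), and KRT19 (0.45, adjusted P = 0.000207) higher, KRT18 (−0.34, adjusted P = 0.00515) lower and the other 4 not called. Of 9 markers of fibroblasts, endothelium and leukocytes, 6 had 0 counts in all libraries, PTPRC, PECAM1 and COL1A2 included. The 9 together summed to 11.6 to 16.1 CPM with DMSO and 10.1 to 15.9 CPM with abemaciclib, nearly all of it from COL1A1.

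CCNB1 encodes cyclin B1, the main mitotic cyclin, and occupies chromosome 5 (GRCh38) from 69167135 to 69178245. Its level was 106, 99.2 and 107 CPM in the DMSO libraries and 23.0, 28.6 and 20.3 CPM in the abemaciclib libraries. CCNB1 thus kept 23.0% of its DMSO level, with no overlap between the groups. Its log2 fold change was −2.11 (standard error 0.15, edgeR adjusted P = 7.75e-12). CCNB2, the second B-type cyclin of dividing cells, lies on chromosome 15 from 59105126 to 59125045. CCNB2 stood at 89.3, 91.5 and 85.4 CPM with DMSO and at 19.4, 12.1 and 19.99 CPM with abemaciclib. The lowest of these, in abemaciclib replicate 2, came from the library that held the highest CCNB1. The log2 fold change of CCNB2 was −2.38 (standard error 0.17, edgeR adjusted P = 1.12e-11).

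CDK1, the catalytic partner of both cyclins, lies on chromosome 10 from 60778331 to 60794852. CDK1 was at 108, 109 and 102 CPM with DMSO, close to the level of CCNB1, and at 11.2, 11.6 and 8.65 CPM with abemaciclib. With 9.86% of its DMSO level left, it fell further than either cyclin. Its log2 fold change was −3.34 (standard error 0.17, edgeR adjusted P = 2.58e-15), and the 95% intervals of CDK1 (−3.67 to −3.01), CCNB2 (−2.72 to −2.04) and CCNB1 (−2.41 to −1.81) kept CDK1 apart from the cyclins.

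PLK1, which acts at mitotic entry, at the spindle poles and in cytokinesis, lies on chromosome 16 from 23677656 to 23690367. It had the highest level of the set with DMSO, at 146, 188 and 159 CPM. With abemaciclib it was at 8.17, 5.92 and 10.8 CPM, or 5.05% of the DMSO mean. Its log2 fold change of −4.31 (standard error 0.18, edgeR adjusted P = 3.86e-17) was the largest of the 10 and ranked 34 among the 10863 genes tested, counted from the lowest. The 3′ end of PLK1 overlaps ERN2 on the opposite strand. ERN2 had 0 counts in all 6 libraries, and the sources used here do not state whether the counting used strand.

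AURKA encodes Aurora A, which builds the spindle poles and activates PLK1, and lies on chromosome 20 from 56369389 to 56392337. It was at 119.8, 114 and 119 CPM with DMSO and at 42.7, 36.5 and 33.8 CPM with abemaciclib. AURKA therefore stood highest of the set under the drug, and its lowest abemaciclib library was above the highest CCNB1 value of that group. The log2 fold change was −1.64 (standard error 0.13, edgeR adjusted P = 1.09e-10), which left 32.03% of the DMSO level. NEK2, a kinase that helps to separate the centrosomes, lies on chromosome 1 from 211658657 to 211675630. Its DMSO values of 69.6, 68.6 and 66.0 CPM were among the tightest of the set, and its abemaciclib values of 19.4, 17.8 and 9.19 CPM were more spread, with abemaciclib replicate 3 lowest. NEK2 fell by 2.14 on the log2 scale (standard error 0.20, edgeR adjusted P = 1.85e-09).

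BUB1, a checkpoint kinase at the kinetochore, lies on chromosome 2 from 110637528 to 110678063. Levels of BUB1 were 32.2, 28.2 and 35.7 CPM with DMSO and 4.24, 9.87 and 6.76 CPM with abemaciclib. The abemaciclib values rested on 14, 40 and 25 counts, and their coefficient of variation of 40.6% exceeded the 19.5% that counting alone would give. BUB1 fell by 2.18 (standard error 0.26, edgeR adjusted P = 2.48e-07). BUB1B encodes BUBR1, a subunit of the complex that inhibits the anaphase-promoting complex, and lies on chromosome 15 from 40161023 to 40221123. It was at 62.4, 70.7 and 47.3 CPM with DMSO and at 14.2, 16.8 and 22.7 CPM with abemaciclib, so that the replicates of both groups varied more than those of CCNB1. Its log2 fold change was −1.74 (standard error 0.20, edgeR adjusted P = 6.75e-08). Exons at its 3′ end overlap the readthrough gene BUB1B-PAK6 on the same strand, which had 0 counts in every library, and how reads shared by the pair were counted is not given in the sources used here.

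TTK encodes MPS1, the kinase that recruits the checkpoint proteins, and lies on chromosome 6 from 80003887 to 80042527. It was at 16.8, 17.2 and 21.2 CPM with DMSO and at 9.08, 6.91 and 5.67 CPM with abemaciclib, again with no overlap. The fitted log2 fold change was −1.35 (standard error 0.29, edgeR adjusted P = 0.000711). MASTL, on chromosome 10 from 27154824 to 27187953, had the lowest DMSO level of the set, at 14.5, 18.1 and 13.9 CPM, and 8.77, 5.92 and 6.21 CPM with abemaciclib. MASTL had the smallest change, a log2 fold change of −1.16 (standard error 0.30, edgeR adjusted P = 0.00514), and kept 44.9% of its DMSO level. When the edgeR test was set against a minimum log2 fold change of 1, TTK (adjusted P = 0.67) and MASTL (adjusted P = 1) did not pass and the other 8 genes did.

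**Figure D1:**
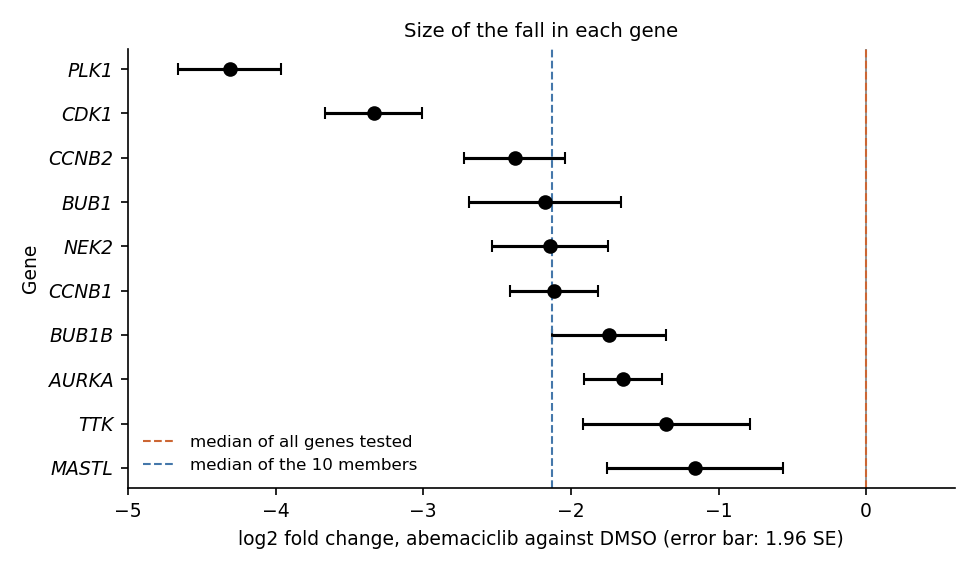
The log2 fold change of abemaciclib against DMSO for each gene, with error bars that span the 95% interval and dashed lines at the median of the 10 genes (−2.13) and of all genes tested (−0.00). The genes run from −4.31 for PLK1 to −1.16 for MASTL, and the error bars of CDK1 and PLK1 do not reach those of the other 8.

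The falls differed in size along the set, from a 19.8-fold difference of means for PLK1 and 10.1-fold for CDK1 to 2.55-fold for TTK and 2.23-fold for MASTL. The order of the levels therefore changed. The 3′ libraries read about 1 fragment per transcript end whatever the length, so levels on the CPM scale can be set side by side, although priming may differ between genes. With DMSO the order was PLK1, AURKA, CDK1, CCNB1, CCNB2, NEK2, BUB1B, BUB1, TTK and MASTL, and CDK1 with CCNB1, NEK2 with BUB1B, and TTK with MASTL overlapped between libraries. With abemaciclib it was AURKA, CCNB1, BUB1B, CCNB2, NEK2, CDK1, PLK1, TTK, MASTL and BUB1, and only AURKA stood clear of its neighbour. PLK1 took 21.2% of the counts of the 10 genes with DMSO and 5.42% with abemaciclib, and CDK1 went from 13.7% to 6.91%. AURKA went from 15.2% to 24.7% of the summed counts.

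Ratios within a library, which do not depend on how libraries are scaled, restate the unequal falls for pairs of partners. They use the same counts as the fold changes and are not separate support. The log2 ratio of CCNB1 to CDK1 counts was −0.02, −0.14 and 0.08 with DMSO and 1.03, 1.29 and 1.22 with abemaciclib. CCNB1 and CDK1 transcripts were thus near parity with DMSO, and CCNB1 stood 2.27 times above CDK1 with abemaciclib. The log2 ratio of AURKA to PLK1 went from −0.47 ± 0.22 to 2.20 ± 0.50 (SD, n = 3 in each group), a difference of 2.67. For MASTL to CDK1 it went from −2.77 ± 0.16 to −0.59 ± 0.32, a difference of 2.18, and for CCNB2 to CDK1 from −0.26 ± 0.01 to 0.68 ± 0.58, a difference of 0.94. In these 4 ratios the groups did not overlap, and each had a two-sided exact permutation P of 0.1 (0.15 adjusted over 6 ratios), the smallest the design allows. The groups overlapped for CCNB1 to CCNB2 (difference 0.27, standard error 0.38, exact permutation P = 0.8) and for BUB1 to BUB1B (difference −0.51, standard error 0.42, exact permutation P = 0.3). The cyclin pair depended on abemaciclib replicate 2, where CCNB1 was high and CCNB2 low, and without it the difference was −0.10.

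No single library set the falls. Among the abemaciclib libraries, replicate 1 held the highest level of 4 genes, replicate 2 of 3 and replicate 3 of 3, and the lowest level was in replicate 3 for 5 genes. With each library left out in turn all 10 genes passed the threshold, and the log2 fold change stayed between −4.55 and −4.10 for PLK1 and between −1.35 and −1.04 for MASTL. The widest range was that of BUB1, from −2.52 to −1.93.

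Because the genes fell together, their promoter windows were read for letters known from mitotic genes. RefSeq windows of 300 bases on GRCh38.p14, from 250 bases before to 50 after a start site, were matched for 8 of the 10 genes, CDK1 with a pair of start sites. AURKA and TTK were not matched. The cell cycle genes homology region (CHR) is bound by the MuvB complex and was searched as TTTGAA or TTCGAA, the CCAAT box is bound by NF-Y and was searched as CCAAT, and E2F sites were searched as TTTCCCGC, TTTCGCGC, TTTGCCGC or TTTGGCGC. Each was searched on both strands and in these forms only, so another form of a site would be missed. No matches overlapped in these windows. CHR letters were found for 6 of the 8 genes (CCNB2, CDK1, PLK1, BUB1, BUB1B and MASTL) and in 16.4% of all 35116 windows, or 11.4% of the 12507 windows of tested genes. CCAAT was found for 6 (CCNB1, CCNB2, CDK1, PLK1, BUB1 and NEK2) and in 34.6% of all windows (35.4% for tested genes). Both were found for 4 genes and in 6.38% of windows (4.76% for tested genes), and E2F letters only for CDK1 and in 3.31% of windows (5.17% for tested genes).

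A spacing of 32 or 33 bases between the first bases of a pair of CCAAT boxes on the same strand was noticed after the windows were seen. It occurred in CCNB1, CCNB2, CDK1 and NEK2, 4 of the 8 genes, and in 0.513% of all windows and 0.888% of those of tested genes. In CCNB1 the boxes began 87 and 55 bases before the start site, in NEK2 66 and 34 bases before it, and in CCNB2 there were 3 in a row, at 120, 87 and 54 bases before it. CCNB2 also had CHR letters 29 bases before its start site, as did PLK1. The windows of those 4 genes are printed with that of PLK1, which fell most, and that of MASTL, which fell least. MASTL had CHR letters 248 bases before its start site, on the opposite strand, and 3 bases after it, and no CCAAT. Sequences run 5′ to 3′ on the strand of the gene, and capitals mark CHR, CCAAT and E2F matches. The windows are chr5:69166900-69167199 (plus strand) for CCNB1, chr15:59104896-59105195 (plus) for CCNB2, chr10:60778228-60778527 (plus, the downstream start site) for CDK1, chr1:211675572-211675871 (minus) for NEK2, chr16:23678639-23678938 (plus) for PLK1 and chr10:27155102-27155401 (plus) for MASTL. A match of letters describes the sequence and does not show binding.
CCNB1: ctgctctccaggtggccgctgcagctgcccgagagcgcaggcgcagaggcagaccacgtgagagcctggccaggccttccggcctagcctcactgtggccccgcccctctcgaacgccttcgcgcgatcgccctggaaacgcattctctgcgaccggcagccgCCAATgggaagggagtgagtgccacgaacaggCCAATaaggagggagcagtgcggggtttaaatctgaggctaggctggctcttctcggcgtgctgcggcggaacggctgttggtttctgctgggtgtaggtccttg
CCNB2: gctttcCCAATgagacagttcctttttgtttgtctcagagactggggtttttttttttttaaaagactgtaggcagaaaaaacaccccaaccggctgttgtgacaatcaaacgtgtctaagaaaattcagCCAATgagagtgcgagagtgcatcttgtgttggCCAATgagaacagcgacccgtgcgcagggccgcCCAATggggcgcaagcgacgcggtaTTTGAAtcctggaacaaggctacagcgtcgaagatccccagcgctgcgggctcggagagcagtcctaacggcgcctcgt
CDK1: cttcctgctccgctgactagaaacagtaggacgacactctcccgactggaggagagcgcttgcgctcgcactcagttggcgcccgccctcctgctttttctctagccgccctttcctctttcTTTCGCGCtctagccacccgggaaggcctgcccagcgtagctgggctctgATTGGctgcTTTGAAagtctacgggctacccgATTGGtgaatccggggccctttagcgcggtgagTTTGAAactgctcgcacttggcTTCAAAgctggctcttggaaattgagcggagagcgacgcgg
NEK2: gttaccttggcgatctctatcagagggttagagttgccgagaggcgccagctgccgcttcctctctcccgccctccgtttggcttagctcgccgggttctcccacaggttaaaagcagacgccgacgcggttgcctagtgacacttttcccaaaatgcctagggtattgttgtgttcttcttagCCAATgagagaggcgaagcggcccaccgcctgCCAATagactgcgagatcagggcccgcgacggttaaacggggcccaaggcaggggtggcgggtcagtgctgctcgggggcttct
PLK1: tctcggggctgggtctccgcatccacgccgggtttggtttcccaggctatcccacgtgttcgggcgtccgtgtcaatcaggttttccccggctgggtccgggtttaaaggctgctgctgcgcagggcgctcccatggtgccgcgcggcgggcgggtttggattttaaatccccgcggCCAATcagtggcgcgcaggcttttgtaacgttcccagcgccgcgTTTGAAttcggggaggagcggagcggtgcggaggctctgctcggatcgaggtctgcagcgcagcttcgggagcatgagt
MASTL: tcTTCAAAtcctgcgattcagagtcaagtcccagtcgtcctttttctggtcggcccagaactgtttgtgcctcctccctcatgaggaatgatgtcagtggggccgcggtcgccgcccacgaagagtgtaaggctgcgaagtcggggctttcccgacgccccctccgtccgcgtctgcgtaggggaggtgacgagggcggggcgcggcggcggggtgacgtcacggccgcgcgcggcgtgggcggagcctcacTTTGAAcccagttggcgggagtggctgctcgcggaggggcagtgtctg

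The genes around cyclin B and CDK1 were read from 6 lists of 64 genes. These lists, like the set, were chosen with earlier results of these data known. Their shares beside those over all genes are therefore a description and not a test. In the list of CDK1 activity control, 7 of 10 tested genes were lower and 1 higher (edgeR, adjusted P under 0.05, against 13.3% lower and 12.5% higher over all genes), with a median log2 fold change of −0.98. Both inhibitory kinases (WEE1 and PKMYT1) and all 3 CDC25 phosphatases fell. CDC25B went from 54.8 ± 5.48 to 12.5 ± 2.58 CPM (SD, n = 3 per group), and its log2 fold change was −2.12 (standard error 0.20, edgeR adjusted P = 1.68e-09). PKMYT1, which phosphorylates CDK1 at membranes, went from 246 ± 10.7 to 58.6 ± 4.65 CPM (log2 fold change −2.07, edgeR adjusted P = 1.72e-14), and its 3′ end overlaps PAQR4 on the opposite strand. The log2 fold change was −1.95 for CDC25C and −1.71 for CDC25A. The CDK-activating kinase, formed by CDK7, CCNH and MNAT1, did not follow. CDK7 was higher by 0.71 (edgeR adjusted P = 0.0179), a call lost with DESeq2 (adjusted P = 0.0517), without DMSO replicate 1 (0.0566), without DMSO replicate 3 (0.0576) and without abemaciclib replicate 3 (0.0699). CCNH (log2 fold change −0.13) and MNAT1 (−0.28) did not pass the threshold.

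Around MASTL, of the 7 genes for its substrates and the phosphatase 1 was lower and 2 were higher, against 13.3% lower and 12.5% higher over all genes, so the lower count was near that background. Their median log2 fold change was −0.03. ENSA and ARPP19, the proteins that MASTL phosphorylates to block PP2A-B55, had log2 fold changes of −0.06 (edgeR adjusted P = 0.763) and −0.03 (0.879), at 204 ± 8.45 and 196 ± 28.0 CPM for ENSA (SD, n = 3 in each group). PPP2R2A, the B55 alpha regulatory subunit, was higher by 0.66 (standard error 0.12, edgeR adjusted P = 0.000133), with 80.9, 69.5 and 83.0 CPM in DMSO libraries and 112, 125 and 132 CPM in abemaciclib libraries. The smaller changes of PPP2CB, a catalytic subunit (log2 fold change 0.41, edgeR adjusted P = 0.0216), and of PPP2R1A, the scaffold subunit (−0.36, adjusted P = 0.0336), were lost in some fits. PPP2CB was lost when DMSO replicate 1 (adjusted P = 0.0647) or 3 (0.132) or abemaciclib replicate 1 (0.0808) or 2 (0.0507) was left out. PPP2R1A was lost with DESeq2 (adjusted P = 0.08), with a replicate block (0.0611) and when DMSO replicate 2 (0.155) or 3 (0.0775) or abemaciclib replicate 2 (0.109) or 3 (0.118) was left out, and its 3′ end overlaps a gene on the opposite strand.

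Among the checkpoint proteins that act with BUB1, BUB1B and TTK, 5 of 9 tested genes were lower (13.3% over all genes) and 0 higher in edgeR (0 also before adjustment, and 0 in DESeq2), with a median log2 fold change of −0.56. CDC20, the activator of the anaphase-promoting complex that the checkpoint restrains, went from 42.6 ± 6.73 to 8.97 ± 1.45 CPM (SD, n = 3 per group), and its log2 fold change was −2.24 (edgeR adjusted P = 6.36e-09). Log2 fold changes were −1.83 for KNL1, the kinetochore scaffold for BUB1, −1.65 for KNTC1 and −0.73 for BUB3, the partner of BUB1 and BUB1B, all past the threshold. BUB3 stayed at 75.3, 77.0 and 72.7 CPM with abemaciclib, against 4.24 to 9.87 CPM for BUB1. ZWILCH (log2 fold change −0.10) and MAD2L1BP (0.08) did not pass the threshold, and MAD1L1 had too few counts to be tested. The 3′ end of MAD1L1 overlaps another gene on the same strand, and how shared reads were counted is not given.

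Of the 8 partners of Aurora A and PLK1, 5 were lower (13.3% over all genes) and 0 higher in edgeR (0 also before adjustment, and 0 in DESeq2), with a median log2 fold change of −2.03. TPX2, which activates Aurora A on the spindle, was at 293, 286 and 301 CPM with DMSO and at 51.7, 49.8 and 50.8 CPM with abemaciclib. TPX2 fell by 2.53 (standard error 0.11, edgeR adjusted P = 1.08e-16), whereas AURKA itself had a log2 fold change of −1.64. Among the others called, HMMR, a spindle protein, had a log2 fold change of −4.13, CEP55, a cytokinesis protein, −3.84 and TACC3, a spindle substrate of Aurora A, −2.14. NEDD1 (−0.40) and CEP192 (−0.46), which are centrosome proteins, did not pass the threshold.

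Among relatives of the same kinase and cyclin families, 4 of 15 tested were lower and 3 higher, against 13.3% and 12.5% over all genes. The median log2 fold change was −0.01. AURKB, the Aurora kinase of the chromosomal passenger complex, had 251, 272 and 206 counts with DMSO and 3, 2 and 2 with abemaciclib. Its level was 114 times higher with DMSO, with an exact 95% counting interval of 54.98 to 284 times that leaves out the spread between replicates, and the fitted log2 fold change was −6.75 (edgeR adjusted P = 1.96e-16). AURKA, by comparison, kept 125 to 148 counts in those libraries. NEK3 had 30, 41 and 35 counts with DMSO and 12, 8 and 2 with abemaciclib (edgeR adjusted P = 0.000513), and its 3′ end overlaps a gene on the opposite strand. NEK6, a relative of NEK2 that acts at the spindle, was higher instead. Its values were 30.5, 35.3 and 34.2 CPM with DMSO and 88.0, 96.7 and 78.6 CPM with abemaciclib, a log2 fold change of 1.40 (standard error 0.15, edgeR adjusted P = 1.79e-08). CDK5, a kinase best known from neurons, rose by 0.69 (edgeR adjusted P = 0.000557) and PLK2, a Polo-like kinase of G1 and stress responses, by 0.56 (edgeR adjusted P = 0.00341). CDK4, a target of the drug, had a log2 fold change of 0.03 (edgeR adjusted P = 0.873), and its 3′ end overlaps TSPAN31 on the opposite strand. CCNB3, CDK6, PLK3 and AURKC had too few counts to be tested.

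Of 9 tested factors known to bind promoters of mitotic genes, 2 were lower and 0 higher in edgeR (0 also before adjustment, and 0 in DESeq2), with a median log2 fold change of −0.34. With 13.3% lower and 12.5% higher over all genes, these counts were near the background. The 2 were FOXM1, which fell from 90.1 ± 18.7 to 15.7 ± 2.68 CPM (SD, n = 3 in each group, log2 fold change −2.51, edgeR adjusted P = 8.95e-12), and MYBL2, which fell by 2.32 (edgeR adjusted P = 6.07e-13). The 3′ end of FOXM1 overlaps ITFG2 on the opposite strand. RBBP4 (0.03) and NFYB (−0.37) did not pass the threshold, and LIN37, with 0 counts in all libraries, was not tested. Its 3′ end overlaps another gene on the same strand, and how shared reads were counted is not given.

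The genes whose profile lay nearest to that of the set were found by the Euclidean distance between the 6 log2 levels relative to the DMSO mean and the median profile of the 10 genes, among 9706 other genes with at least 5 CPM with DMSO. PKMYT1 was nearest (distance 0.18), followed by FOXA3, a forkhead factor (0.23), NCAPD2, a condensin subunit (0.24), LBR, the lamin B receptor (0.27), and TACC3 (0.30). FOXA3 was at 78.6, 74.6 and 79.7 CPM with DMSO and at 17.2, 19.2 and 15.7 CPM with abemaciclib. Since the treatment makes up nearly all of the profile, this likeness describes the size of the fall.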

How the data were processed

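RNA was sequenced as 3′ mRNA libraries with single-end reads. The authors trimmed the reads with BBDuk and, per the labels, used STAR 2.7.5b, hg38 and featureCounts 2.0.1. The deposited values are raw counts per gene for 6 libraries. The strand setting of the counting is not given in the sources used here. Symbols, overlaps within the last 500 exonic bases and coordinates came from GENCODE 44 on GRCh38, a later release than that of the counting. Abemaciclib was compared with DMSO over the whole table by the quasi-likelihood test of edgeR 4.0.16 under R 4.3.3. Genes were kept by filterByExpr and library sizes scaled by TMM, followed by glmQLFit and glmQLFTest. P was adjusted by Benjamini–Hochberg across 10863 genes at a threshold of 0.05. The fit was also run on counts simulated with the same biological spread for every gene, so its handling of unequal spreads was not tested. Standard errors are the log2 fold change over the square root of F, and 95% intervals assume a normal error. CPM are TMM-scaled. Ratios used counts plus 0.5. The edgeR P values set the difference between groups against the spread between these libraries, estimated in part across genes. Permutation P values compare it with regroupings of the same libraries. Total counts per library ranged from 3317860 to 4013156, and a count of 0 allowed up to 3 counts, for counting error only. Named were all 10 genes, up to 4 called genes with the largest change per list, every gene called higher, up to 2 uncalled genes of highest level and the 5 nearest profiles. The set and the lists were chosen with earlier results of these data known. The spacing of CCAAT boxes was chosen after seeing the sequences. Alternatives were DESeq2 1.42.0, its size factors, total counts, no filter, a mean of at least 10 counts, a minimum log2 fold change of 1, a replicate block, each library left out and, for ratios and the sum, 0.1 or 2 counts added.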

Additional observations from a re-analysis of the deposited data

How the results depend on the processing

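All 10 genes were lower in every alternative except a minimum log2 fold change of 1, which left 8, with TTK (−1.35, adjusted P = 0.67) and MASTL (−1.16, adjusted P = 1) lost. That setting also left 272 genes lower and 74 higher over the whole table, 3 lower and 0 higher in CDK1 activity control, 0 and 0 in the Greatwall-PP2A arm, 2 lower in the checkpoint partners, and 2 lower and 1 higher in the family relatives. With DESeq2, CDK1 activity control had 0 higher and the Greatwall-PP2A arm 0 lower, and with a replicate block that arm also had 0 lower. The cause was not tested.

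Leaving out 1 library gave 0 to 1 higher in CDK1 activity control, 0 to 1 lower and 1 to 2 higher in the Greatwall-PP2A arm, and −0.10 to 0.51 for the log2 ratio of CCNB1 to CCNB2, which changed sign without abemaciclib replicate 2. Genes named from the lists that were not called and lay near 0, such as ARPP19, CCNH, ENSA, MAD2L1BP and ZWILCH, also changed sign without 1 library, and 0 of the called genes did. Over all genes tested, 1132 to 1529 genes were lower and 981 to 1412 higher in these fits, against 1442 and 1354. Among 396 values recomputed for the set, its sum and ratios and the counts of calls, 371 had an unchanged direction and call, or a shift smaller than 1 SD of the replicates (for counts, within 1.5 times).

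The labels number the replicates without naming a pairing, and 3 libraries per group are too few to settle it. Same-numbered libraries had correlations of −0.09 to 0.01 in their deviations from the group means, and 1 of 6 libraries correlated best with its own number. With the replicate block 1280 genes were lower and 1139 higher, and all 10 genes of the set stayed lower. Depth limits TTK, MASTL and BUB1 most, which had means of 25.3 to 26.3 counts per abemaciclib library, where counting alone gives a coefficient of variation of 19.5% to 19.9%.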

Other observations

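The promoter letters read for the set were also read for the other tested genes with a window. Of 551 that held both CHR and CCAAT letters, 25.6% were lower and 12.5% higher with abemaciclib by the edgeR threshold, and their median log2 fold change was −0.11. Of 4239 that held neither, 11.8% were lower and 12.6% higher, with a median of 0.01. These shares leave out the 10 genes of the set, were computed after the windows of the set were seen, and are given as a description with no test.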
